A study of Mus musculus with 19 samples.

Results

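Cycling Ccr7+ thymocytes were defined as cells with at least 1 unique molecular identifier (UMI) each of *Mki67*, *Top2a* and *Ccr7* and with 0 UMIs of 5 excluded genes, *Arpp21*, *Ptcra*, *Rag1*, *Foxp3* and *Cd79a*. Among cells with at most 15% mitochondrial UMIs and at least 200 genes detected, 957 of 79569 met this rule, out of 85389 barcodes in all. *Mki67* and *Top2a* are genes of dividing cells, and *Ccr7* encodes the chemokine receptor that thymocytes acquire after positive selection. The excluded genes mark early thymocytes (*Arpp21*, *Ptcra* and *Rag1*), regulatory T cells (*Foxp3*) and B cells (*Cd79a*).

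RNA and 111 surface antibodies were measured in single thymocytes (CITE-seq) from 17 female mice aged 4 to 8 weeks, on 19 lanes of a droplet chip in 3 experiments. Wild-type B6 thymocytes came from 5 mice, of which replicates 1 to 3 were sorted for CD5+TCRb+ cells and replicates 4 and 5 were not sorted and had 2 lanes each. The CD4-fated mice were 2 AND, 2 OT-II and 2 MHCI-/- mice, and the CD8-fated mice were 2 F5, 2 OT-I and 2 MHCII-/- mice. The transgenic T cell receptor (TCR) of AND and OT-II mice recognizes MHC class II, and that of F5 and OT-I mice recognizes MHC class I. AND and F5 mice also lacked *Rag1* and so had a single receptor, whereas OT-I and OT-II mice were not stated to lack it. *Rag1* is also an excluded gene of the rule, and whether it marked early cells alike in AND and F5 mice was not tested. MHCI-/- mice lacked *B2m* and MHCII-/- mice lacked *H2-Ab1*, and both were sorted for CD5+TCRb+ cells, while the 4 transgenic genotypes were not sorted. OT-I, OT-II and unsorted B6 mice were all in the third experiment, done at another site, so that these genotypes and that experiment cannot be told apart. No animal was treated.

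Thymocytes divide in a burst before they express a complete TCR, then rest as CD4+CD8+ double-positive cells while they are screened. Positively selected cells induce *Ccr7* and enter the medulla, where they lose CD24 and CD69 and gain the egress receptor encoded by *S1pr1* and MHC class I, before they leave the thymus. Late division of single-positive thymocytes is known from the medulla and is a separate event from the early burst. Cycling Ccr7+ cells were therefore set against a pair of classes from the same mice. Noncycling Ccr7+ cells had a *Ccr7* UMI, no UMI of *Mki67* or *Top2a* and none of the excluded genes (16918 cells). Cycling early blasts had UMIs of *Mki67* and *Top2a* and of at least 1 of *Arpp21*, *Ptcra* and *Rag1*, and none of *Ccr7*, *Foxp3* or *Cd79a* (6971 cells).

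Cycling Ccr7+ cells were deeply covered, with a median of 13440 RNA UMIs against 5064 in noncycling Ccr7+ cells and 10963 in blasts. Their count per mouse ran from 1 in F5 replicate 1 to 188 in OT-I replicate 1, and 14 mice had at least 10 and entered the sums per mouse. The cells of B6 replicate 5 stood apart in depth, with a median of 3087 UMIs. Simulated doublets marked 5.12% of cycling Ccr7+ cells (49 cells), 3.14% of noncycling ones and 5.71% of blasts. A barcode of 15 of the 957 cells also occurred in another lane, and any pair of lanes shared 0 to 35 barcodes. *Cd74*, a gene of antigen-presenting cells, reached 10 UMIs in 3 of the 957 cells, 1 each in AND replicate 1, B6 replicate 4 and OT-II replicate 2. These 3 cells held 1392 of all 1501 *Cd74* UMIs, and the summed level of the 12-gene dendritic and myeloid list ran from 81.1 to 3698 UMIs per 1000000 RNA UMIs (CPM) over the 14 mice (median 135). The part of these 3 cells in the results was not tested.

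The cells were selected on their RNA counts of these 8 genes, and the following values are a description. Median counts were 6 UMIs of *Mki67*, 14 of *Top2a* and 3 of *Ccr7*. Single-UMI cells just inside the threshold were 179 for *Mki67*, 99 for *Top2a* and 202 for *Ccr7*, and 19 cells had 1 UMI of all of them. Just outside it lay 562 cells that met every condition but had no *Ccr7*, 213 that had exactly 1 UMI of an excluded gene, and 1890 Ccr7+ cells with only one of *Mki67* and *Top2a*, most of them (1482) with *Top2a*. *Birc5*, the mitotic gene encoding survivin, was not part of the rule but belongs to the same RNA. It was detected in 78.3% of cycling Ccr7+ cells, 81.2% of blasts and 3.09% of noncycling cells. In B6 replicate 5 it was detected in 21.6%, the lowest of the 17 mice, against 56.8% of its blasts and 4.41% of its noncycling cells. How far the rule picked dividing cells in this mouse was not tested, and the mouse was kept in the sums.

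The name semimature was checked against maturation genes. *S1pr1* was detected in 58.0% of cycling Ccr7+ cells and *Klf2*, its transcriptional activator, in 87.8%. *Cd69* was detected in 33.5%, *Cd24a* in 20.4% and *Rag2* in 1.57%. In noncycling Ccr7+ cells, which held fewer UMIs, *S1pr1* was detected in 44.2%, *Klf2* in 68.9%, *Cd69* in 24.0% and *Cd24a* in 11.7%. These shares pool mice that gave unequal numbers of cells to the classes. As the median of 14 mice, *Cd24a* was detected in 14.29% of cycling and 14.03% of noncycling cells, *Cd69* in 33.3% and 24.7%, *S1pr1* in 53.5% and 39.9%, and *Klf2* in 91.4% and 63.1%. The summed level of the 12-gene semimature list was lower in cycling than in noncycling Ccr7+ cells, with medians of 2442 and 4620 CPM over 14 mice. These values do not settle the name, and the cells are called cycling Ccr7+ cells throughout.

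A *Ccr7* UMI can also come from free RNA, so its share was read in cycling cells that carried an early gene. Among those cells the share with a *Ccr7* UMI was 5.11% to 31.3% over the 17 mice. Among cycling cells with none of the 5 excluded genes it was 54.0% to 85.6% in B6 replicates 1 to 4, MHCI-/-, MHCII-/- and OT-I mice. These mice all lay above their own early cells. OT-II mice had 42.5% and 26.9% against 7.53% and 7.81% in early cells, and B6 replicate 5 had 37.2% against 10.6%. In F5 mice the shares were 5.56% and 12.5% against 12.2% and 10.1%, and in AND replicate 2 25.0% against 22.4%, at or near the level of early cells. The 1, 10 and 4 cells that met the rule in F5 replicates 1 and 2 and AND replicate 2 are therefore not distinguished from background by this share. AND replicate 1 lay nearer to it than the remaining mice (41.9% against 29.6%). Depth differed too. Early cycling cells of F5 mice had medians of 18240.5 and 16644 UMIs, against 8856.5 and 10698.5 in cycling cells without excluded genes. In AND mice they had 25273 and 20035 UMIs against 13832 and 16160. MHCII-/- replicate 1 went the other way, at 14084 against 16549. The part of depth in these shares was not tested. The share, the counts of antibodies and the comparisons between lineages are given with and without AND and F5 mice.

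The first comparison asked how much of the Ccr7+ compartment was cycling when thymocytes were directed to one lineage. Cycling cells were 2.06% ± 1.20 (SD, n = 6 mice) of Ccr7+ cells in CD4-fated mice and 7.66% ± 5.91 (n = 6) in CD8-fated mice. Shares were 3.14% and 2.74% in MHCI-/- mice, 2.78% and 2.56% in OT-II mice, and 0.959% and 0.170% in AND mice. In the opposite lineage they were 8.60% and 7.25% in MHCII-/- mice, 13.8% and 14.4% in OT-I mice, and 0.157% and 1.78% in F5 mice. The 4 MHCII-/- and OT-I mice lay above all CD4-fated mice, whereas F5 replicate 2 lay among them and F5 replicate 1 below them all. The difference of 5.60 percentage points did not pass an exact two-sided permutation test of the mice (p = 0.0541; the smallest p possible was 0.00216). It changed when cells were thinned to an equal number of UMIs. With cells thinned to 1500, 2000 and 3000 UMIs, CD4-fated minus CD8-fated mice gave -2.36, -3.26 and -2.07 points (exact permutation p = 0.00649, 0.0606 and 0.528). Thinning also left out cells below the target. At 3000 UMIs OT-II replicate 2 kept 859 cells and stood at 15.8% (6 of 38 cells). The cause of these changes was not tested. Without AND and F5 mice the means were 2.81% ± 0.242 and 11.001% ± 3.60 (n = 4 each), and the exact permutation p was 0.0286, the smallest that 4 against 4 mice allow. These mice were left out after the data were seen, by a share of *Ccr7*, a gene of the rule. With all mice paired by family and replicate number, the exact permutation p was 0.0625.

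**Figure D1:**
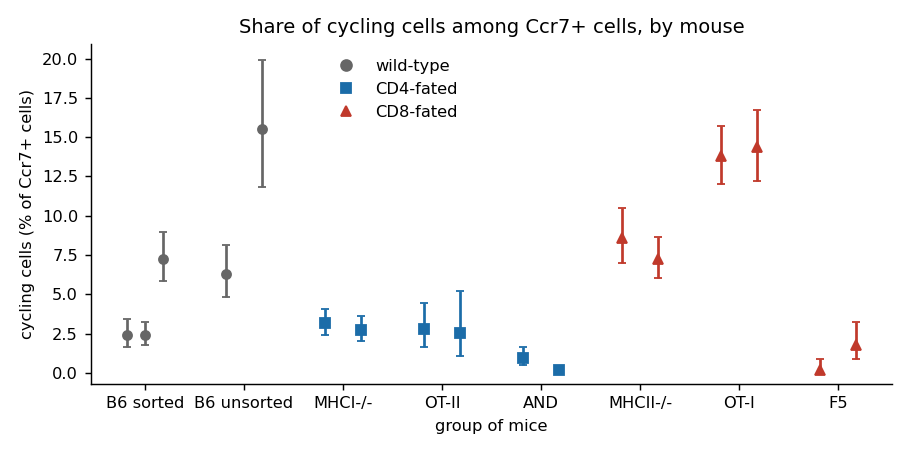
Each point is 1 mouse and shows cycling cells as a percentage of its Ccr7+ cells (y axis), by group (x axis), with the exact 95% binomial interval as the bar. MHCII-/- mice at 7.25% and 8.60% and OT-I mice at 13.8% and 14.4% lay above every CD4-fated mouse, whereas F5 mice lay at 0.157% and 1.78%.

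Within a family of genotypes, which also holds site and sort constant, the order was the same in the MHC-deficient and in the OT mice. In the AND and F5 family the shares overlapped. With 2 mice against 2, the exact permutation test cannot pass the threshold within a family. Wild-type mice overlapped both lineages, with 2.41%, 2.42% and 7.27% in sorted B6 and 6.31% and 15.5% in unsorted B6. The highest of these was the shallow replicate 5, which fell to 6.10% when at least 2 UMIs each of *Mki67* and *Top2a* were asked for, below replicate 3 at 6.22%. The intervals drawn on the points cover counting error only.

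The lineage of cycling cells was then read from the CD4 and CD8a antibodies, which the rule did not use. Most cycling Ccr7+ cells of MHCII-/- and OT-I mice were CD4-CD8a+ (78.9% to 85.7%), and most of MHCI-/- mice were CD4+CD8a- (87.5% and 94.3%). In B6 replicates 2, 3 and 4 both gates were filled, with 42.2%, 54.9% and 55.8% CD4+CD8a- and 46.7%, 42.7% and 44.2% CD4-CD8a+. Few cells were CD4+CD8a+ in these 3 mice (0% to 11.1%). The CD4+CD8a- gate held more in the remaining wild-type mice. It had 87.5% against 12.5% CD4-CD8a+ in replicate 1, where 16 of 29 cycling cells could be gated. In replicate 5 it had 66% against 18%, and 16% were CD4+CD8a+. OT-II mice had 62.5% and 33.3% CD4+CD8a- cells, out of 16 and 6 gated cells. Another 25% and 33.3% of their cycling cells were CD4-CD8a-, against 4.62% and 4.68% of their noncycling Ccr7+ cells. In AND replicate 1 these shares were 22.2% and 3.43%. In F5 replicate 2, 7 of its 10 cells were CD4+CD8a+, as were 54.8% of its noncycling Ccr7+ cells. In AND mice 3 of 9 and 3 of 3 gated cycling cells were CD4+CD8a+, against 5.42% and 9.38% of their noncycling Ccr7+ cells.

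Within 1 mouse, CD4-CD8a+ Ccr7+ cells were more often cycling than CD4+CD8a- ones in 3 of 5 wild-type mice. In B6 replicate 2, 6.16% of CD4-CD8a+ cells (21 of 341) and 1.70% of CD4+CD8a- cells (19 of 1118) were cycling. The shares were 13.9% and 6.01% in replicate 3, and 13.5% and 4.94% in replicate 4. In these 3 mice the exact 95% intervals of the gates, which cover counting error only, did not overlap. The order of the gates was not tested over mice. In replicate 1 (1.09% and 1.84%) and replicate 5 (14.8% and 16.2%) the intervals overlapped widely, and wild-type mice did not all show the order. Only 16 of the 29 cycling cells of replicate 1 passed the antibody filters used for gating, against 1024 of its 1077 noncycling cells. Of these cycling cells 2 were CD4-CD8a+ and 14 were CD4+CD8a-. In replicate 5 *Birc5* was detected in 21.6% of cycling cells. Ccr7+ cells of the CD4-CD8a+ gate were also deeper in each of the 5 wild-type mice, for example a median of 6878 against 5198 UMIs in replicate 2, and the part of depth was not tested.

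In lineage-restricted mice the gate of their own lineage was read. Of CD4-CD8a+ Ccr7+ cells, 11.98% and 11.7% were cycling in MHCII-/- mice and 26.1% and 23.9% in OT-I mice. Of CD4+CD8a- Ccr7+ cells, 4.25% and 2.97% were cycling in MHCI-/- mice and 2.26% and 1.03% in OT-II mice. In F5 mice the own gate had 0 of 309 gated cells (an exact 95% interval up to 1.19%) and 1.22%, below both MHCI-/- mice. The only cycling cell of F5 replicate 1 held 11870 antibody UMIs, above the upper limit for gating, and was not gated. In AND mice the own gate had 0.339% and 0 of 866 gated cells (up to 0.425%). In AND replicate 2, 917 of 2256 noncycling Ccr7+ cells and 3 of 4 cycling cells passed the antibody filters. Its noncycling cells had a median of 962 antibody UMIs, below the lower limit. Both counts of 0 therefore cover gated cells only. OT-I mice had the highest shares of any gate with at least 30 cells.

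**Figure D2:**
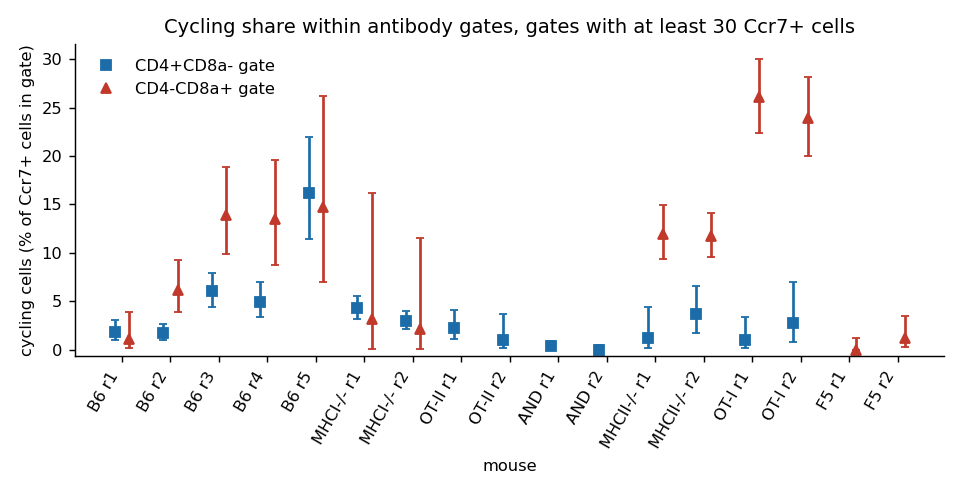
Points give cycling cells as a percentage of the Ccr7+ cells in an antibody gate (y axis) for each mouse (x axis) and gate with at least 30 Ccr7+ cells, CD4+CD8a- as squares and CD4-CD8a+ as triangles, with exact 95% binomial intervals. The triangle lay above the square in B6 replicates 2, 3 and 4 and below it in B6 replicates 1 and 5, and the OT-I triangles at 26.1% and 23.9% were the highest points drawn.

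Surface protein levels were not used by the rule and were tested, in cells that the rule picked on RNA of dividing cells. Against noncycling Ccr7+ cells of the same 14 mice, 3 of 111 antibodies differed (2.70% called, 0.901% higher and 1.80% lower, by edgeR's quasi-likelihood test with Benjamini-Hochberg adjustment). CD71, the transferrin receptor that dividing cells use to take up iron, was higher by 1.13 ± 0.15 on the log2 scale (SE; edgeR adjusted p = 9.23e-05) and higher in 14 of 14 mice. Its level was 21.5, 50.8 and 281 UMIs per 10000 antibody UMIs (lowest, median and highest mouse) in cycling cells and 14.3, 25.1 and 42.8 in noncycling cells. The highest value was that of AND replicate 1, and the ranges of the 2 classes overlapped. CD150, a SLAM-family receptor, was lower in all 14 mice by -0.68 ± 0.11 (edgeR adjusted p = 0.000549). CD69, an activation marker that retains thymocytes in the thymus, was also lower in all 14 mice by -0.62 ± 0.13 (edgeR adjusted p = 0.00459).

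Without AND and F5 mice, 15 antibodies differed, 12 higher and 3 lower, over 12 mice. Besides CD71, CD150 and CD69, these included higher CD43, a mucin-like adhesion modulator (0.54, edgeR adjusted p = 2.14e-05). Integrin b7 (0.82, edgeR adjusted p = 0.00337) and CD103 (0.76, adjusted p = 0.00231), which can pair with each other for lodging in epithelia, were higher too. CD24, lost as thymocytes mature, was lower by -0.61 (edgeR adjusted p = 0.0173), and CD127, the interleukin-7 receptor chain, was higher by 0.22 (adjusted p = 0.0195). With all 14 mice the same antibodies gave CD43 0.36, integrin b7 0.64, CD103 0.55 and CD24 -0.51, each at an edgeR adjusted p of 0.0563. In the 14 fits without 1 mouse, CD43 and CD103 passed in 10, integrin b7 in 8, and CD24 and CD127 in 1. AND replicate 1 and F5 replicate 2 stood apart in CD24. Their cycling cells had CD24 at 159 and 169 units, against 69.5 and 128 on their noncycling cells, the opposite order to the other mice but OT-II replicate 1. The classes also differed in their gates. In OT-I replicate 1, 82.5% of cycling and 34.0% of noncycling cells were CD4-CD8a+, and in B6 replicate 2, 46.7% and 18.2%. B6 replicate 1 did not share this order, at 12.5% and 15.6%. The part of the gates in the differences between these classes, here and below, was not tested.

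Antibody levels were next used to divide the Ccr7+ cells of each mouse into tertiles, and the cycling share was compared between the top and bottom tertile over 17 mice (two-sided sign-flip permutation test of mice, adjusted over 7 antibodies, of which 6 are given). The share was 3.39% in the lowest tertile by CD71 and 11.7% in the highest, and was higher in the top tertile in 17 of 17 mice (8.35 points ± 6.78, SD; permutation adjusted p = 0.00028). F5 replicate 1 and AND replicate 2 held 1 and 4 cycling cells, and B6 replicate 5 was nearly level at 26.2% and 27.0%. Without AND and F5 mice CD71 differed by 10.3 points, higher in the top tertile in 13 of 13 mice (permutation adjusted p = 0.00171). For CD24 the shares were 10.4% in the bottom tertile and 4.13% in the top tertile (-6.25 points, permutation adjusted p = 0.00317), lower in the top tertile in 11 mice and higher in 5. Of these 5, 4 were AND and F5 mice. For CD69 they were 9.51% and 3.44% (-6.07 points, permutation adjusted p = 0.00042), lower in 15 mice, and for CD5, a gauge of TCR signal, 9.01% and 4.74% (-4.28 points, permutation adjusted p = 0.00413), lower in 13. CD127 and TCRb tertiles differed by 1.60 and -1.57 points and did not pass the test (permutation adjusted p = 0.233 and 0.154).

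The scale mattered for these results, since cycling cells held more RNA. When antibody UMIs were divided by RNA UMIs in place of all antibody UMIs, CD71 tertiles differed by 0.31 points (permutation adjusted p = 0.743) and that call was lost. CD127 and TCRb then gave -4.97 and -9.53 points, both called, with CD127 turned in direction. CD24, CD69 and CD5 were at -10.4, -10.4 and -11.4 points. Division by RNA UMIs lowers every antibody in cells with more RNA, so a lower value on this scale is no separate support for any 1 antibody.

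**Figure D3:**
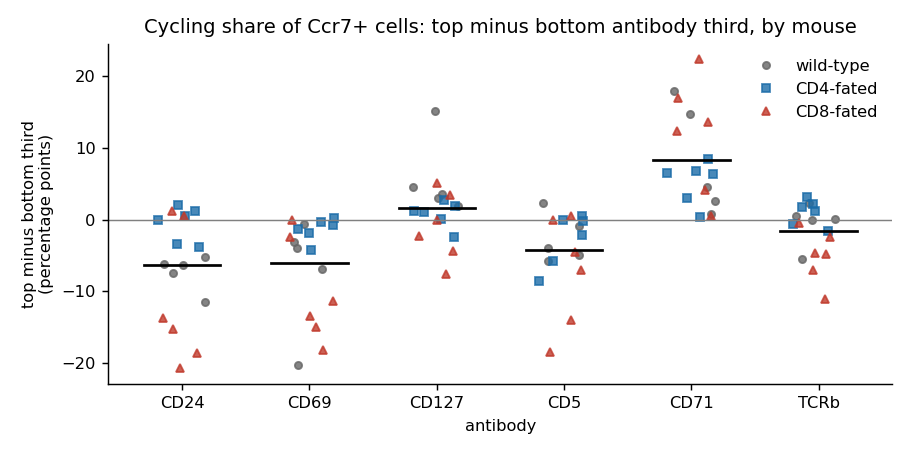
Each point is 1 mouse and gives the cycling share of Ccr7+ cells in its top tertile by an antibody minus that in its bottom tertile, in percentage points (y axis), for 6 antibodies (x axis); black bars are means over 17 mice. CD71 was above 0 in all 17 mice, and CD24 was furthest below 0 in OT-I and MHCII-/- mice.

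The RNA of cycling Ccr7+ cells is described against noncycling Ccr7+ cells without a test of single genes, because the rule used RNA of the same cells. With 5955 of 10505 genes past an edgeR adjusted p of 0.05 (56.7% called, 24.4% higher and 32.3% lower, median log2 fold change -0.09), the counts of called genes in a list are a description beside these background shares. All 42 S phase genes and all 50 G2/M genes of the lists were higher, with median log2 fold changes of 2.84 and 4.81. Outside these lists and the rule, the highest folds included those of *Esco2*, which acetylates cohesin in S phase (7.90 ± 0.14, SE), *Sapcd2* (7.15), the mitotic kinesins *Kif14* and *Kif18b* (6.88 and 6.72), and replication-dependent histone genes such as *Hist1h2ap* (7.26). Near-identical histone copies can share reads, and single histone values are uncertain. *Esco2* stood at 97.0, 127 and 220 CPM (lowest, median, highest of 14 mice) in cycling and at 0, 0.529 and 1.05 in noncycling cells.

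Genes of the 2 phases differed in the letters of their promoters. The table of RefSeq promoters (GRCm38.p6, 250 bases before to 50 after the start) held 44 of the 50 G2/M genes and 30 of the 42 S phase genes. The letters TTTGAA, on either strand, form the core of the cell cycle genes homology region, a known element of late cell-cycle promoters. They were present in 68.2% of the G2/M promoters (30 of 44), 16.7% of the S phase promoters (5 of 30) and 18.1% of all 27025 promoters. They were not particular to cell-cycle lists, since 4 of 8 promoters of the semimature list (50%) and 2 of 13 of the mature list (15.4%) held them. The letters GCGGGAAA, on either strand, are one form of the E2F site. They were in 16.7% of the S phase promoters, in 0 of the 44 G2/M promoters and in 1.11% of all promoters. A match is a description of letters in a window. These 3 G2/M promoters are shown because each holds the motif before its start, in capitals (TTCAAA on the strand shown is TTTGAA on the other). *Ube2c* (chr2:164769679-164769978, plus strand) and *Cdc20* (chr4:118437294-118437593, minus strand) encode parts of the mitotic ubiquitin machinery, with the match 29 and 18 bases before the start, and *Cdk1* (chr10:69352863-69353162, minus strand) encodes the mitotic kinase, with 2 matches, 71 and 15 bases before it.
Ube2c: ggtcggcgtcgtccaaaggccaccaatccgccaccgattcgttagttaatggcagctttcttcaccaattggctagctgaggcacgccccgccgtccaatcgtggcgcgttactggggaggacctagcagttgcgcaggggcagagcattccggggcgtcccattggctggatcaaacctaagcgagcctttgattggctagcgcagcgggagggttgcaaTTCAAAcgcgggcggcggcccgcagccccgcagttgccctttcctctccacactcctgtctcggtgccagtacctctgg
Cdc20: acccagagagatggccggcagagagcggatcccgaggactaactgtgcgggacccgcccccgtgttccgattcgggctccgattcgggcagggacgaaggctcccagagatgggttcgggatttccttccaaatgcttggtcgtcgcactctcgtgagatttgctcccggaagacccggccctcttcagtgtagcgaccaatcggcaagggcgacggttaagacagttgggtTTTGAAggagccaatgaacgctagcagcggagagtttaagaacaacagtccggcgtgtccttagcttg
Cdk1: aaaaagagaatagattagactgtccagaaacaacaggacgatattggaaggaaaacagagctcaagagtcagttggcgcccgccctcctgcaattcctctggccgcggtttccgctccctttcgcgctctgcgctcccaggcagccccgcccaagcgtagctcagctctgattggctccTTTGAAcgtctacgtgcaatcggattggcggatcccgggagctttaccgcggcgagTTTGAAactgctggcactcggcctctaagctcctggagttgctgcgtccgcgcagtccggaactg

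Genes that hold cells out of cycle were mostly lower in cycling Ccr7+ cells, with 11 of 16 measured CDK inhibitors and quiescence factors lower, 3 higher and a median of -0.63. *Btg1*, an antiproliferative gene, was lower by -1.42 ± 0.09, and *Foxp1*, which keeps naive T cells quiescent, by -1.09. The exceptions were *Cdkn2c*, which encodes the CDK4/6 inhibitor p18 and was higher by 4.20 ± 0.16, *Cdkn2d* (0.66) and *Rb1* (0.62). *Cdkn2c* stood at 22.5, 86.6 and 242 CPM in cycling and at 1.73, 5.28 and 16.97 in noncycling cells, so that the ranges did not overlap. Of nucleotide synthesis genes 17 of 18 were higher (median 0.93), and of the list of Myc genes and nutrient transporters 9 of 12 (median 0.56). The latter included *Slc7a5*, a transporter of large amino acids (1.06), and *Tfrc*, which encodes CD71 (0.70), while *Myc* itself was at 0.10. Glycolysis genes were split, with 7 higher and 6 lower of 15.

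Maturation genes were more often lower than higher. Of the 12 semimature genes, 10 were lower and 0 higher (median -0.90), among them *Ccr9*, a chemokine receptor of immature thymocytes (-1.33), *Itm2a* (-1.28) and the chromatin organizer *Satb1* (-1.17). Of the 15 mature genes, 8 were lower and 2 higher (median -0.26). The higher ones were *H2-Q7*, an MHC class I gene (0.62), and *Itgb7*, which encodes integrin b7 (0.28). The call of *Itgb7* was lost in 12 alternatives and kept in 14, always with the same direction. *Klf2* was at 0.03 and *S1pr1* at -0.57, with the latter at 26.9, 94.2 and 338 CPM in cycling and 77.2, 159 and 370 CPM in noncycling cells. Lower too were 12 of 12 interferon response genes (median -0.56), 12 of 13 of the NF-kappaB and TNF receptor list (-0.77), 11 of 17 TCR response genes (-0.41) and 13 of 15 cytokine receptor and STAT5 genes (-0.68), while *Pim1*, a kinase gene of the last list, was higher by 1.34. Among named genes outside the lists, *Slfn5* (-3.40), the histone demethylase gene *Kdm5b* (-2.56) and *Mxd4*, a gene of the Mad family that opposes Myc (-1.97), were lower in all 14 mice.

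Cycling Ccr7+ cells and early blasts are both dividing, and their RNA is described without a test of single genes. The classes were picked on *Ccr7* and on *Arpp21*, *Ptcra* and *Rag1*, so differences in genes of stage follow in part from that choice. Of 10402 genes, 5214 passed the edgeR threshold (50.1% called, 24% higher in cycling Ccr7+ cells and 26.1% lower, median -0.03). S phase genes were nearly level (median -0.05, 5 higher and 11 lower of 42), and G2/M genes were lower in Ccr7+ cells (44 of 50, median -0.59). *Birc5* had 542 ± 156 CPM (SD, n = 14) in cycling Ccr7+ cells and 733 ± 266 in blasts.

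The D-type cyclins, which start the cycle with CDK4 and CDK6, differed in opposite directions. *Ccnd2* was higher in cycling Ccr7+ cells by 4.04 ± 0.32 on the log2 scale, at 17.9, 417 and 1239 CPM against 4.76, 21.5 and 119 CPM in blasts. *Ccnd3* was lower by -1.39 ± 0.11, at 257, 337 and 492 CPM against 399, 1014 and 1443 CPM. Among noncycling Ccr7+ cells *Ccnd2* was at 735 ± 311 CPM, so its level in cycling Ccr7+ cells lay between the other classes. *Cdk6* (-1.19) and *Myb*, a driver of the early burst (-2.09), were lower in cycling Ccr7+ cells as well.

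Of the 12 survival and death genes 6 were higher, 4 lower and 2 not called (median 0.35). *Bcl2* was higher by 2.52 ± 0.21 and *Bcl2l1*, which encodes Bcl-xL of double-positive cells, was lower by -2.49 ± 0.12, each in 14 of 14 mice. *Bcl2* stood at 194 ± 48.0 CPM in cycling Ccr7+ cells, 38.2 ± 22.8 in blasts and 335 ± 119 in noncycling Ccr7+ cells (SD, n = 14). *Il7r* was higher than in blasts by 3.06 and *Il2ra*, which encodes CD25, lower by -4.26.

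Mature genes were mostly higher than in blasts, and semimature genes were split. Since the classes were picked by genes of stage, these counts are a description. Of the 15 mature genes 14 were higher in cycling Ccr7+ cells and 0 lower (median 3.14), led by *Slfn1* (5.90), *S1pr1* (5.47) and *Il6ra* (5.37), and *Klf2* was higher by 4.55. Of the 12 semimature genes 7 were higher and 3 lower (median 0.81), and their summed level had medians of 2442 CPM in cycling Ccr7+ cells and 2505 CPM in blasts. All 17 measured TCR response genes were higher (median 2.37) and so were all 12 interferon response genes (median 2.74). Of the 8 genes of preselection double-positive cells, outside the genes of the rule, 0 were higher and 8 lower (median -2.97), led by *Rag2* (-5.42) and *Dntt*, which encodes terminal transferase (-4.63). *Dntt* stood at 278 CPM in the cycling Ccr7+ cells of F5 replicate 2 and at 112 CPM in those of AND replicate 1, against a median of 23.3 CPM over 14 mice.

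Surface proteins, which the rule did not use, differed in the same classes for 87 of 111 antibodies, 18 higher and 69 lower (78.4% called, 16.2% higher and 62.2% lower). This count was not stable. Without AND and F5 mice 50 differed, 29 higher and 21 lower, and the median log2 fold change moved from -0.33 to 0.05. It was also 46 without B6 replicate 1, 45 without B6 replicate 3, 49 without OT-I replicate 1, 51 without doublets and 48 with UMI-matched blasts. The named antibodies below kept their direction and call with and without AND and F5 mice. Integrin b7 was higher on cycling Ccr7+ cells by 2.87 ± 0.36 (edgeR adjusted p = 2.2e-06), and CD278, the costimulatory receptor ICOS, by 2.71 ± 0.23 (edgeR adjusted p = 5.29e-08). TCRb was at 66.3, 133 and 224 units per 10000 on cycling Ccr7+ cells and at 9.72, 18.9 and 93.3 on blasts (2.43 ± 0.37, edgeR adjusted p = 1.86e-05). CD69, lower than on noncycling cells, was higher than on blasts by 1.81, and CD5 was higher by 1.48. CD304, or neuropilin 1, was lower by -4.20 ± 0.37 (edgeR adjusted p = 5.29e-08), CD25 by -2.65 and CD24 by -2.33. CD71 was lower by -1.42, so that cycling Ccr7+ cells lay between noncycling cells and blasts in CD71.

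**Figure D4:**
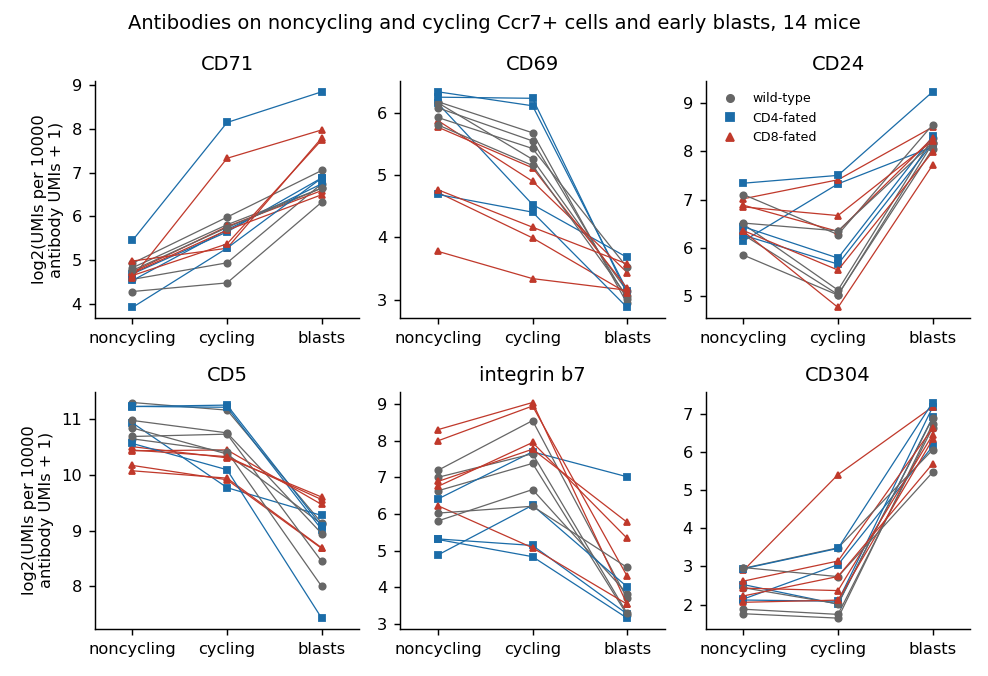
Lines join the levels of 6 antibodies (y axis, log2 of UMIs per 10000 antibody UMIs plus 1) on noncycling Ccr7+ cells, cycling Ccr7+ cells and cycling early blasts (x axis) in each of 14 mice. CD71 rose from the first class to the last, CD5 and integrin b7 were low on blasts, and CD24 dropped on cycling Ccr7+ cells except in AND replicate 1, F5 replicate 2 and OT-II replicate 1.

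Cycling Ccr7+ cells of the 2 gates were compared within the 4 mice that had at least 10 of each (B6 replicates 2, 3 and 4 and MHCII-/- replicate 2), with 103 CD4+CD8a- and 176 CD4-CD8a+ cells. Gates came from antibodies, and RNA was tested. Of 5738 genes 169 differed (2.95% called), 88 higher in CD4+CD8a- (1.53%) and 81 higher in CD4-CD8a+ cells (1.41%). All 5 measured CD4 lineage genes were higher on the CD4 side, and 7 of 8 CD8 lineage genes on the CD8 side. *Cd4* and *Cd8a*, which are on these lists, encode the proteins of the gate. None of 42 S phase and 47 G2/M genes differed by edgeR's quasi-likelihood test, beside 2.95% of all genes, with median log2 fold changes of -0.04 and -0.15. The cells of both gates were picked on *Mki67* and *Top2a* RNA.

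*Zbtb7b*, which encodes the CD4 lineage factor ThPOK, had 20.9, 39.4, 31.3 and 26.8 CPM in the CD4+CD8a- cells of the 4 mice and 0 CPM in the CD4-CD8a+ cells of each (46 UMIs against 0), at least 30.9-fold higher when 3 counts over the group are taken as the floor. *Runx3*, the CD8 lineage factor, had 41.7, 47.3, 44.6 and 22.9 CPM in CD4+CD8a- and 231, 202, 207 and 201 CPM in CD4-CD8a+ cells (-2.41 ± 0.21, edgeR adjusted p = 1.04e-07). Neither pair of ranges overlapped. *Cd40lg*, a helper gene, was higher on the CD4 side by 5.54 ± 0.65 (edgeR adjusted p = 5.85e-06), and so were *Tnfrsf4*, which encodes OX40 (3.96 ± 0.45), *Ly6a* (3.98 ± 0.25) and *Il7r* (1.39 ± 0.19). *Bcl2a1d* (4.22) has near-identical copies and is uncertain. On the CD8 side *Nkg7*, a cytotoxic granule gene, was higher (-6.54 ± 0.30, edgeR adjusted p = 7.32e-13), at 402 to 534 CPM against 0 to 11.5, with *Itgae*, which encodes CD103 (-4.32 ± 0.43), the NK receptor gene *Klrd1* (-3.57 ± 0.51), *Tubb3* (-3.61 ± 0.46) and *H2-Q7* (-1.53 ± 0.20). Leaving out 1 mouse gave 79 to 268 called genes, the lowest without B6 replicate 4 and the highest without MHCII-/- replicate 2.

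**Figure D5:**
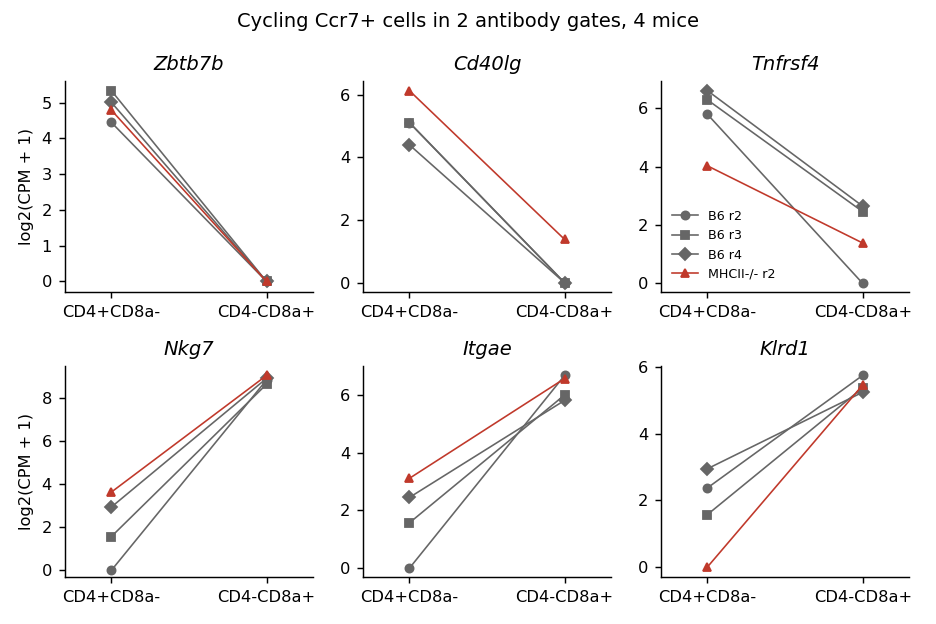
Lines join the levels of 6 genes (y axis, log2 of CPM plus 1) in cycling Ccr7+ cells of the CD4+CD8a- and CD4-CD8a+ gates (x axis) of 4 mice. *Zbtb7b* was at 0 CPM in every CD4-CD8a+ sum, *Cd40lg* and *Tnfrsf4* were higher in CD4+CD8a- cells, and *Nkg7*, *Itgae* and *Klrd1* in CD4-CD8a+ cells, in each mouse.

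A few cycling Ccr7+ cells carried genes of innate-like T cells. A UMI of *Zbtb16*, which encodes the factor PLZF of natural killer T cells, or of the cytokine genes *Il4* or *Il13* was present in 23 of the 957 cells, and in 46 of 16918 noncycling Ccr7+ cells. This group was chosen after its values were seen. The classes differed in depth, with medians of 13440 and 5064 RNA UMIs, and against UMI-matched noncycling cells *Zbtb16* turned in direction. The part of depth in these counts was not tested. MHCII-/- mice had 6 of 89 and 10 of 119 such cells, B6 mice had 6 in all, OT-I mice 1 and MHCI-/- mice 0 of 56 and 0 of 48, which allows up to 5.36% and 6.25% of cells with such a UMI and does not limit the share that expressed these genes. In MHCII-/- replicate 2 they were 9 of its 10 CD4+CD8a- cells. Among CD4+CD8a- cycling cells, 48 of 49 *Il4* UMIs lay in cells that also had *Zbtb16*. *Maf*, called in the gate comparison, stood at 0, 13.8, 42.4 and 149 CPM in the 4 mice, highest in that MHCII-/- mouse.

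Between mice, cycling Ccr7+ cells of 4 CD4-fated mice (AND replicate 1, both MHCI-/- mice and OT-II replicate 1) were tested against those of 5 CD8-fated mice (F5 replicate 2 and both MHCII-/- and OT-I mice), adjusted in the fit for the genotype family. AND replicate 1 and F5 replicate 2 came from the first and the second experiment. Of 7588 genes 33 differed (0.435% called), 17 higher (0.224%) and 16 lower (0.211%) in CD4-fated mice. The 2 sets of mice did not overlap in 194 genes (2.56%). *Zbtb7b* was higher by 3.93 ± 0.61 (edgeR adjusted p = 0.00771), with 8.27, 38.0, 44.9 and 21.3 CPM in the CD4-fated mice and at most 4.27 CPM in the CD8-fated mice. *Tnfrsf4* (3.40 ± 0.61), *Cd40lg* (2.30 ± 0.41) and *Igfbp4*, which encodes a binding protein of insulin-like growth factors (2.09 ± 0.36), were higher too. *Trac* was higher by 1.68 ± 0.35, and in the transgenic mice it can include reads of the transgene. *Cd8b1* (-3.99 ± 0.35), *Itgae* (-4.63 ± 0.63), *Tubb3* (-4.01 ± 0.51) and *Cd226*, which encodes an adhesion receptor of cytotoxic cells (-2.56 ± 0.30), were lower. *Cd226* stood at 4.14 to 21.3 CPM in CD4-fated and at 26.9 to 98.3 CPM in CD8-fated mice, and F5 replicate 2, at 26.9, was the closest of the latter.

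None of the 42 S phase and 50 G2/M genes differed between the lineages by edgeR's quasi-likelihood test (median log2 fold changes of 0.06 and 0.24). This is near the share of all genes called, 0.435%, and all cells were picked on *Mki67* and *Top2a* RNA. In simulated data this fit recovered 48% of changes of 1 on the log2 scale. *Nkg7* and *Runx3* had -2.60 and -1.28 and missed the threshold (edgeR adjusted p = 0.104 and 0.237). Without AND and F5 mice they passed it at -3.22 and -1.79 (edgeR adjusted p = 0.0372 and 0.0158). Leaving out 1 mouse gave 5 to 100 called genes, the fewest without MHCI-/- replicate 1 and the most without OT-I replicate 2. *Cd8b1*, *Cd8a*, *Tubb3* and *Cd226* passed in all 9 of these fits, *Itgae* in 7, *Zbtb7b* in 6, *Igfbp4*, *Tnfrsf4* and *Cd40lg* in 5 and *Trac* in 1. Without AND and F5 mice 43 genes differed and *Trac* did not pass (edgeR adjusted p = 0.153), whereas the other genes named as higher or lower kept their direction and call, for example *Zbtb7b* at 3.89, *Igfbp4* at 1.63 and *Cd226* at -2.61.

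Of the antibodies 3 differed between the lineages (2.70% called), all lower in CD4-fated mice, and 4 did not overlap (3.60%). CD8b was at 53.7 to 200 units in CD4-fated and 946 to 1187 in CD8-fated mice (-3.40 ± 0.35, edgeR adjusted p = 0.00109), and CD8a was lower by -3.52 ± 0.42. The antibody to H-2Kb bound to an ovalbumin peptide was lower by -1.25 ± 0.19 (edgeR adjusted p = 0.00665) at a low level, 1.71 to 4.56 against 3.62 to 6.05 units. H-2Kb is an MHC class I molecule, and the CD4-fated mice included both MHCI-/- mice, which lacked *B2m*. No animal was treated, and the part of the genotype in this antibody was not tested. CD4, at 527 to 1182 against 50.2 to 447 units, did not pass (2.54 ± 0.61, edgeR adjusted p = 0.0631). Without AND and F5 mice 15 antibodies differed and CD4 passed at 3.04 (edgeR adjusted p = 0.000726).

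Last, the ratio of cycling to noncycling Ccr7+ cells was compared between the lineages as an interaction, which is free of lineage differences that both classes share. The classes were split by RNA of *Mki67* and *Top2a*, so the p-values of single genes are given as a description. Of 10127 genes 18 differed (0.178% called), 14 with a higher (0.138%) and 4 with a lower ratio (0.0395%) in CD4-fated mice. The ratios of the 2 sets of mice did not overlap in 278 genes (2.75%). *Racgap1*, a regulator of cell division, had a ratio higher by 2.37 ± 0.22 (edgeR adjusted p = 3.77e-06), and passed in all 9 fits without 1 mouse. *Racgap1* was at 3.45 to 6.50 CPM in noncycling cells of the 4 CD4-fated mice and at 17.4 to 49.7 CPM in those of the 5 CD8-fated mice, while cycling cells had 145 to 225 and 150 to 297 CPM. *Birc5* was detected in 1.08% to 2.95% of noncycling cells of the 4 CD4-fated mice. In the 5 CD8-fated mice it was detected in 1.37% to 6.68% of them. The part of such cells in the ratios was not tested. *Cdkn2c* (1.32 ± 0.26), *Fam111a* (1.11 ± 0.17), the noncoding *Lockd* (0.98 ± 0.18) and *Cd81*, a tetraspanin gene (0.93 ± 0.19), also had higher ratios in CD4-fated mice. Lower ratios were found for *Slamf6*, a SLAM-family receptor gene (-0.96 ± 0.19), and *Rapgef6* (-0.74 ± 0.15). Of the 9 fits without 1 mouse, *Fam111a* passed in 8, *Lockd* in 7, *Cdkn2c* in 5, and *Cd81*, *Slamf6* and *Rapgef6* in 3. The count was 148 without AND and F5 mice, where these 7 genes kept their direction and call, with *Racgap1* at 2.71 and *Slamf6* at -0.75. Of the lists, 4 of 50 G2/M genes and 1 of 42 S phase genes had a higher ratio in CD4-fated mice (medians of 0.79 and 0.45, against -0.04 over all genes). The dendritic and myeloid list had 0 of 8 called at a median of 2.61. The erythrocyte list had 1 of 4 higher (*Hbb-bt*) at a median of 5.79, and against noncycling cells all 4 of its genes were lower (median -6.25). Its summed level was 0 to 29.0 CPM in cycling and 0 to 1436 CPM in noncycling Ccr7+ cells over 14 mice. The part of either list in these ratios was not tested.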

How the data were processed

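RNA and antibody libraries were made with the 10x Genomics 3' v3 kit. The authors deposited raw UMI counts per barcode for each lane, aligned with Cell Ranger 3.1.0 to mm10 (GRCm38) and not normalized. Cells were filtered as stated in the report. Doublets were called per lane from simulated doublets, kept, and left out in an alternative. Counts were summed per mouse and class (at least 10 cells) and scaled by TMM. After filterByExpr removed low counts, edgeR 4.0.16 (limma 3.58.1, R 4.3.3) fitted quasi-likelihood models, and p-values were adjusted by Benjamini-Hochberg and called under 0.05. The mouse was a block in comparisons of classes, since classes came from the same animal. Standard errors were back-calculated from the F statistic. CPM are UMIs per 1000000 RNA UMIs. Gates used Otsu thresholds per lane on cells with 1000 to 10000 antibody UMIs and at least 70 antibodies detected. Shares were tested by permutation over mice, which are the replicates. Intervals and floors cover counting error only.

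Named genes were the called ones with the largest fold up to 10 in each direction, with the same direction in every mouse and at least 20 CPM, outside the rule, cell-cycle, ribosomal, mitochondrial, Gm, Rik and receptor segment genes, and members of the gene lists. The members and lists were chosen with earlier results of these data known. Tested on simulated data, the fits recovered larger fold changes more fully than smaller ones, missed a good part of the smaller changes between lineages and in the interaction, and in several comparisons, antibodies between classes above all, made more false calls than the threshold names. DESeq2 1.42.0 and Python 3.11.15 were also used. Pooled matrices of several lanes were not used, and 1 gene and its antibody are not reported here. CD278 had 2 clones in the third experiment, of which the first listed was used.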

Additional observations from a re-analysis of the deposited data

Results flagged for a closer look

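In 54 groups of mice tested for a value far from the others, 5 had one, and chance flags about 1 in 20 groups. *Birc5* was detected in 21.6% of cycling Ccr7+ cells of B6 replicate 5, far below the other 4 wild-type mice. F5 replicate 2 stood apart from the other 4 CD8-fated mice in its cycling cells, with 44.8 CPM of *Aldh2*, 53.7 CPM of *Cd4* and 0 CPM of *Itgae*. OT-II replicate 1 had 21.3 CPM of *Itgae*, which was at 0 CPM in the other 3 CD4-fated mice.

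The ratio of cycling to noncycling Ccr7+ cells differed between CD4-fated and CD8-fated mice for 7 named genes, by edgeR's interaction test on the log2 scale: *Racgap1* 2.37, *Cdkn2c* 1.32, *Fam111a* 1.11, *Lockd* 0.98 and *Cd81* 0.93 higher in CD4-fated mice, and *Slamf6* -0.96 and *Rapgef6* -0.74 lower. The classes of this ratio were split by RNA of *Mki67* and *Top2a*, so these values are a description.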

How the results depend on the processing

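The cause of the changes below was not tested. The share of cycling cells kept its direction in all alternatives. Its difference was -2.36 points when cells were thinned to 1500 UMIs (exact permutation p = 0.00649) and -8.19 points without AND and F5 mice, both past the threshold, and -3.26 and -2.07 points at 2000 and 3000 UMIs (exact permutation p = 0.0606 and 0.528), where OT-II replicate 2 had 6 of 38 cells. Leaving out 1 mouse gave -7.10 to -4.26 points (exact permutation p = 0.0216 to 0.108), past the threshold without F5 replicate 1 or F5 replicate 2.

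Against noncycling cells, called genes numbered 5613 to 5980 without 1 mouse, 3589 with UMI-matched comparison cells and 3930 without the mouse block. Against blasts they numbered 4885 to 5443 without 1 mouse and 3341 without the block. In matched cells *Cdkn1b* (0.10), *Egr1* (0.047), *Cst7* (-0.28) and *Zbtb16* (-0.99) turned in direction, *Egr1* was at 0.015 with 2 UMIs of *Ccr7* and at 0.0043 without the block, and *Klf2* was at -0.0092 with DESeq2, -0.029 with no low-count filter, -0.029 without the block and -0.031 to 0.14 without 1 mouse (below 0 without B6 replicate 2 or 4, MHCII-/- replicate 1 or 2, or OT-I replicate 1).

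For antibodies against noncycling cells, 7 were called without doublets, 13 with 2 UMIs of *Mki67* and *Top2a*, 13 with library size scaling, 10 with at least 20 cells, 13 with the protein filters, 10 with 2 UMIs of *Ccr7*, 8 with matched cells, 1 without the block, 15 without AND and F5 mice, and 3 to 14 without 1 mouse. Against blasts the counts were 51, 55, 49 (protein filters), 52 (*Ccr7*), 48 (matched cells), 54 (no block), 50 (without AND and F5) and 45 to 91. Leaving out any 1 mouse but B6 replicate 2 or MHCII-/- replicate 1 raised the first count (13 without B6 replicate 1, 12 without replicate 3, 13 without replicate 5, 11 and 9 without an MHCI-/- mouse, 14 without AND replicate 1, 11 without MHCII-/- replicate 2, 7 without F5 replicate 2). The second was 46 and 45 without B6 replicates 1 and 3, 49 without AND replicate 1, 51 without F5 replicate 2 and 49 without OT-I replicate 1.

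Between lineages, 167 genes were called with no low-count filter, 12 without the family covariate, and 5 to 100 without 1 mouse (5 and 9 without an MHCI-/- mouse, 9 and 13 without an MHCII-/- mouse, 20 without OT-II replicate 1, 55 and 100 without an OT-I mouse). Called antibodies were 13 (2 UMIs of *Mki67* and *Top2a*), 25 (at least 20 cells), 15 (protein filters), 17 (2 UMIs of *Ccr7*), 15 (without AND and F5) and 3 to 15 (15 without AND replicate 1, 14 without F5 replicate 2). The interaction gave 41, 40 (library size), 171 (20 cells), 35 (protein filters), 177 (*Ccr7*), 28 (RLE), 132 (no filter), 148 (without AND and F5) and 4 to 44 (33 without AND replicate 1, 4 without MHCI-/- replicate 2, 10 without MHCII-/- replicate 2, 44 without F5 replicate 2, 9 without OT-I replicate 2). Gated cells gave 268 without doublets and 283 with 2 UMIs (each over 3 mice, the first the same count as without MHCII-/- replicate 2), 62 with DESeq2, 288 with no filter, 72 without the block and 79 to 268 without 1 mouse (106, 93 and 79 without B6 replicates 2, 3 and 4). The tertiles gave 4 called antibodies in every alternative but the scale by RNA UMIs, where 6 were called and CD127 (-4.97) turned.

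A replicate number names a different animal in each genotype, and in AND and F5 mice it coincides with the experiment. Among mice with at least 10 cycling Ccr7+ cells, only the MHC-deficient family had both numbers in both genotypes, and its same-numbered mice did not deviate together (r = -0.03 over 5386 genes). With that replicate block, 389 genes and 6 antibodies were called between lineages, and the share had an exact p of 0.0625. The interaction has no fit without the family or with this block, since its mouse block holds both, and the gated cells already pass the protein filters. Alternatives with 2 UMIs of *Ccr7* or without AND and F5 mice were chosen after seeing the data. Noncycling Ccr7+ cells were shallowest in B6 replicate 5 and OT-II replicate 2 (medians of 2319 and 2326 UMIs).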
